A study of Mus musculus with 31 samples.

Results

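Mt1, Mt2, Mtf1 and Slc30a1 are 4 genes of zinc handling that were followed by name through ribosome profiling and total RNA sequencing of mouse skin squamous cell carcinoma (SCC) cells. They were taken by their gene identifiers (Entrez 17748, 17750, 17764 and 22782) and not by a threshold on a value, but earlier results of these data were known when they were chosen. Each had a row in both count tables, which hold 20704 genes for ribosome-protected fragments (RPFs) and 24593 genes for total RNA. All 4 passed the filter on low counts, among 9457 genes kept for RPF, 11708 for total RNA and 9424 for both. The cells carry oncogenic Hras (HRasG12V) and an altered TgfbrII (TgfbrIIfl/fl in the labels). All groups lack their own Eif2s1, the gene of eIF2α, after CRISPR editing, and make the protein from a myc-tagged lentiviral transgene under the PGK promoter. S51 cells carry the wild-type transgene and can mount the integrated stress response (ISR), whereas S51A cells carry a form whose serine cannot be phosphorylated and are ISR-null. The lines are clones grown from single cells, with a pair of clones per genotype treated as 1 line, and the clone behind each library is not named in the sources used here. A difference between the lines, in level or in response, thus cannot be told apart from a difference between clones. Cells received DMSO (vehicle) or 100 nM of the proteasome inhibitor bortezomib for 4.5 h by the labels. A figure legend gives a slightly shorter time. Of the 31 libraries, 16 were total RNA (4 for every group) and 15 were RPF (3 for S51 vehicle and otherwise 4).

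Metallothioneins are small proteins that bind zinc and copper through clusters of cysteines and buffer the free metal of the cell. Their genes are classically switched on by MTF1, a zinc finger protein that senses free zinc, moves to the nucleus and binds metal response elements (MREs) in the promoters of Mt1, Mt2 and Slc30a1. Slc30a1 encodes ZnT1, the zinc exporter of the plasma membrane, so that the same sensor governs both storage and export of the metal. In skin, metallothioneins are known from basal and proliferating keratinocytes, and they also respond to glucocorticoids and to oxidative stress.

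The libraries held 1038826 to 4902237 counts for RPF and 18758668 to 22994713 for total RNA. Columns of the S51 bortezomib and S51A vehicle groups were assigned as a note to the series on exchanged titles states, since the numbers in the present titles, read literally, would exchange these groups. Hspa1b, a heat shock chaperone with a near-identical copy, ran from 33.8 to 50.2 CPM (counts scaled by effective library size) in the total RNA of the vehicle libraries and from 842 to 1103 CPM in those labelled bortezomib. Eif2s1 lay between 279 and 314 CPM in all total RNA libraries, which checks no genotype, because the counts do not tell the transgene from the ablated gene. The keratinocyte markers were high, with Krt5 at 3647 CPM or more and Krt14 at 4785 CPM or more in total RNA. Of the defining markers of other cells, Col1a2 was at 0 in all 31 libraries, and the total RNA of Col1a1, Cdh5, Ptprc and Mlana stayed at or below 0.433 CPM. Pecam1, Pmel, Pdgfra and Cd68 reached 0.632, 2.12, 6.94 and 7.21 CPM of total RNA, and their part in the results was not tested. Sources differ on whether the replicates were technical or biological, and p-values measure only the spread between these libraries.

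Mt2 and Mt1 lie next to each other on mouse chromosome 8 (build mm10, RefSeq models, both on the + strand), Mt2 at chr8:94172618-94173567 and Mt1 at chr8:94179089-94180327, with 5521 bases between them. Each has 3 exons and a coding sequence of 186 bases for 61 residues, of which 20 (32.8%) are cysteines. The coding sequences were identical at 148 of 186 positions (79.6%). No window of 20, 26 or 32 bases from the counted coding stretch of one gene was present unchanged in the mRNA of the other, nor was any window of 100 bases of the mRNAs. A footprint of these lengths wholly inside the counted stretch, or a read of 100 bases, thus belonged to 1 of the genes only if it had no mismatches. The longest stretch shared by both coding sequences was 20 bases and did not lie wholly inside the counted stretch. Shorter total RNA reads were not checked. Slc30a1 lies at chr1:191906781-191913247 with 2 exons and 503 residues, and Mtf1 at chr4:124802549-124849800 with 11 exons and 675 residues.

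Matches to the core of the MRE are shown because they are the feature that the metallothionein genes and Slc30a1 share through MTF1. The cores TGCACNC and TGCGCNC were searched on both strands in 500 bases around the RefSeq start of each gene, 250 on either side. Mt2 held 7 matches, Mt1 held 5, Slc30a1 held 2 and Mtf1 held 0. Of 32851 windows around the gene starts of the RefSeq promoter table, 37.9% held at least 1 match, 13.7% at least 2, 0.490% at least 5 and 0.0487% at least 7. The 3 matches nearest to the start codon of each metallothionein gene and both matches of Slc30a1 are given with the core in capitals and 4 bases on each side, read 5′ to 3′ on the strand of the core.
Mt1, chr8:94179105-94179119, + strand: aaagTGCGCTCggct
Mt1, chr8:94179169-94179183, - strand: ggttTGCACCCagca
Mt1, chr8:94179183-94179197, + strand: ccttTGCGCCCggac
Mt2, chr8:94172672-94172686, - strand: cgccTGCACACgccc
Mt2, chr8:94172691-94172705, - strand: accaTGCACGCgccc
Mt2, chr8:94172725-94172739, + strand: ctttTGCGCTCgacc
Slc30a1, chr1:191906734-191906748, - strand: gcttTGCACTCggaa
Slc30a1, chr1:191906807-191906821, - strand: cgacTGCGCTCggcc
In the metallothionein genes these sites lay 116 to 199 bases before the start codon and inside the transcribed part of the RefSeq models, whose starts reach upstream of them. The neighbouring Mt1 sequences share 1 base at position 94179183. A match describes letters and not binding, and no match in the window of Mtf1 says only that these letters are not in it.

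**Figure D1:**
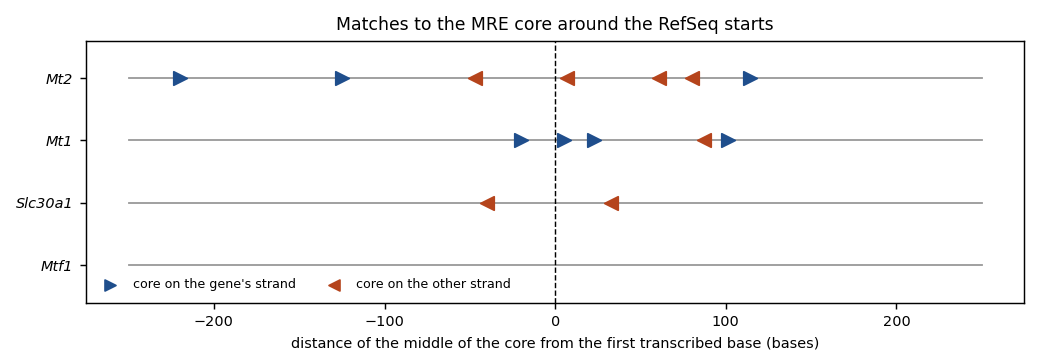
Positions of the matches to the MRE core in the 500 bases around the RefSeq start of Mt2, Mt1, Slc30a1 and Mtf1. The horizontal axis gives the distance in bases of the middle of the core from the first transcribed base (dashed line), and triangles point right for the gene's own strand and left for the other. Mt2 has 7 matches, Mt1 has 5, Slc30a1 has 2 and Mtf1 has 0.

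In total RNA, the exporter and the metallothioneins were lower after bortezomib and Mtf1 was higher, in both lines. Slc30a1 fell 2.25-fold in S51 and 3.14-fold in S51A cells, Mt2 fell 1.74-fold and 1.70-fold, and Mt1 fell 1.55-fold in S51 but only 1.13-fold in S51A cells. Mtf1 rose 1.31-fold and 1.27-fold. A difference passed the test at an adjusted p below 0.05 by the quasi-likelihood test of edgeR, adjusted over all genes by Benjamini-Hochberg, and was called where its fold also exceeded 2 in total RNA or 1.5 in RPF. At any fold, 30.2% of all genes tested fell in S51 and 28.9% in S51A cells, and 29.7% and 27.5% rose, so passing the test at any fold was common among all genes. The share of all genes whose groups did not overlap was not counted, so separate ranges below only describe the members. In bulk libraries a lower level in each cell and fewer cells with the mRNA cannot be told apart.

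Slc30a1, the exporter, was the only member called in total RNA (1 of 4 members in each line, lower), where 3.02% of all genes were called lower and 1.96% higher in S51 cells, and 2.55% lower and 1.63% higher in S51A cells. Its levels were 26.3, 22.9, 22.3 and 19.9 CPM in S51 vehicle and 9.07, 9.88, 10.4 and 11.1 CPM in S51 bortezomib. In S51A cells they were 30.6, 26.2, 28.4 and 19.2 CPM under vehicle and 9.68, 7.68, 8.90 and 7.02 CPM under bortezomib. Every bortezomib library thus lay below every vehicle library of either line. The log2 fold change was -1.17 (SE 0.12, adjusted p = 8.51e-09) in S51 and -1.65 (SE 0.12, adjusted p = 3.87e-11) in S51A cells. The difference between these responses, 0.48 on the log2 scale (SE 0.17), missed the threshold by edgeR in the main fit (adjusted p = 0.0523) and passed it by DESeq2 (adjusted p = 0.0307). By edgeR it passed with no filter (adjusted p = 0.00655) and with the replicate number as a block (adjusted p = 0.00676). The adjusted p of this difference ran from 0.0035 to 0.114 when single libraries were left out, and the lowest was without S51A vehicle replicate 4, the library with the lowest Slc30a1 of its group. The lines themselves overlapped in each treatment, with adjusted p = 0.118 for S51A against S51 vehicle and 0.0728 under bortezomib. The latter difference (-0.28, SE 0.14) passed by DESeq2 (adjusted p = 0.0438), with no filter (0.0179) and with only the groups compared (0.0280), so its side of the threshold depends on the setting. It also passed without S51A vehicle replicate 4 (0.0234) or S51A bortezomib replicate 1 (0.0337), and the vehicle difference passed without S51A vehicle replicate 4 (0.0035) or S51 vehicle replicate 1 (0.0452). Between the lines 0 of 4 members were called under either treatment, where 5.47% of all genes were called higher and 2.41% lower under vehicle and 8.28% in either direction under bortezomib, and 0 of 4 differed in response past 2-fold, as 0.478% of all genes did.

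Mt2 had 290.7, 318, 304 and 296 CPM of total RNA in S51 vehicle and 174, 186, 179 and 155 CPM in S51 bortezomib. In S51A cells it had 227, 245, 262 and 188 CPM under vehicle and 138, 138, 156 and 112 CPM under bortezomib. Treated and untreated libraries did not overlap in either line, and the S51A vehicle group lay wholly below the S51 vehicle group. The log2 fold changes with bortezomib were -0.80 (SE 0.08, adjusted p = 7.2e-09) in S51 and -0.76 (SE 0.08, adjusted p = 2.66e-08) in S51A cells, with a difference of -0.04 (SE 0.12, adjusted p = 0.86) whose sign turned when single libraries were left out. S51A cells held less Mt2 than S51 cells under vehicle, by -0.39 (SE 0.08, adjusted p = 0.000154), and under bortezomib, by -0.36 (SE 0.08, adjusted p = 0.000592), both on the log2 scale. At any fold, 32.4% of all genes were lower in S51A cells under vehicle and 32.4% under bortezomib, and 31.4% and 33.3% were higher.

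Mt1 set itself apart from its neighbour in the treated S51A cells. Its total RNA was 502, 523, 489 and 471 CPM in S51 vehicle and 326, 342, 315 and 298 CPM in S51 bortezomib. In S51A cells it was 360.3, 408, 435 and 325 CPM under vehicle and 318, 338, 376 and 321 CPM under bortezomib. The S51 groups did not overlap, whereas the ranges of the S51A groups overlapped. The log2 fold change was -0.63 (SE 0.07, adjusted p = 1.08e-08) in S51 and -0.17 (SE 0.07, adjusted p = 0.0269) in S51A cells. The fall in S51A cells was not stable, since leaving out S51A vehicle replicate 2 or 3 or S51A bortezomib replicate 1, 2 or 4 gave an adjusted p of 0.0501 to 0.164. Its value ran from -0.24 without S51A vehicle replicate 4 to -0.11 without S51A vehicle replicate 3. The responses of the lines differed by -0.46 (SE 0.09, adjusted p = 0.00101), a difference at any fold that 21.6% of all genes showed in either direction and 9.58% in this direction. Under vehicle S51A cells held less Mt1 than S51 cells by -0.38 (SE 0.07, adjusted p = 2.09e-05), while under bortezomib the value was 0.08 (SE 0.07, adjusted p = 0.298).

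Mtf1, the zinc sensor itself, had 25.7, 27.5, 23.3 and 28.0 CPM of total RNA in S51 vehicle and 34.5, 34.2, 31.4 and 37.0 CPM in S51 bortezomib. In S51A cells the levels were 34.0, 37.3, 33.9 and 34.8 CPM under vehicle and 44.5, 44.7, 44.8 and 44.0 CPM under bortezomib. Untreated S51A cells thus stood at the level of treated S51 cells, and the treated S51A libraries were the highest of all. The log2 fold changes were 0.39 (SE 0.06, adjusted p = 4.26e-06) for bortezomib in S51, 0.35 (SE 0.06, adjusted p = 1.41e-05) for bortezomib in S51A cells, and 0.42 (SE 0.06, adjusted p = 1.21e-06) for S51A against S51 vehicle. All stayed under the 2-fold rule.

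**Figure D2:**
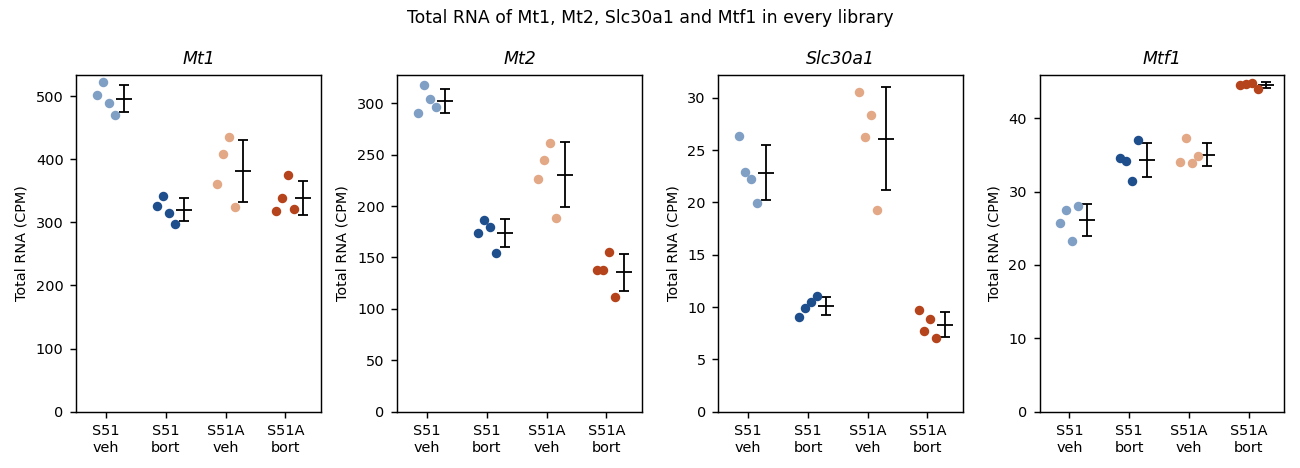
Total RNA of Mt1, Mt2, Slc30a1 and Mtf1 in CPM (vertical axes, from 0) in the 4 groups, vehicle (veh) and bortezomib (bort) of each line. Each point is 1 library and the bars give the mean ± SD of 4 libraries. Slc30a1 lies between 7.02 and 11.1 CPM in the treated libraries and at 19.2 CPM or more in the untreated ones, and Mt1 overlaps between treated and untreated S51A cells.

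The mean levels of total RNA fell in different orders for the 4 genes. For Mt1 the order was S51 bortezomib (320.1 ± 18.7 CPM, SD, n = 4), S51A bortezomib (338 ± 26.4), S51A vehicle (382 ± 48.9) and S51 vehicle (496 ± 21.9), and only S51 vehicle stood clear of its neighbour. For Mt2 it was S51A bortezomib (136 ± 18.03), S51 bortezomib (174 ± 13.5), S51A vehicle (230.3 ± 31.6) and S51 vehicle (302 ± 11.7), with an overlap only between the treated groups. Slc30a1 followed the order S51A bortezomib (8.32 ± 1.19), S51 bortezomib (10.1 ± 0.842), S51 vehicle (22.8 ± 2.64) and S51A vehicle (26.1 ± 4.91), where groups of the same treatment overlapped. Mtf1 rose from S51 vehicle (26.1 ± 2.15) through S51 bortezomib (34.3 ± 2.31) and S51A vehicle (35.0 ± 1.58), which overlapped, to S51A bortezomib (44.5 ± 0.375). Per kilobase of mRNA the metallothioneins were far more abundant than the other members, with 915 ± 40.4 CPM per kb for Mt1 and 543 ± 21.0 for Mt2 in S51 vehicle against 4.37 ± 0.506 for Slc30a1 and 3.42 ± 0.282 for Mtf1. These levels use the full mRNA length. The region counted for total RNA is not given, and they would differ if only the coding sequence was counted.

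The ratio of Mt1 to Mt2 counts within a library is free of the scaling of library sizes, and it addressed whether the neighbours moved together. In total RNA it lay between 1.59 and 1.73 in S51 vehicle and in S51A vehicle alike, with a mean log2 ratio of 0.72 ± 0.05 and 0.73 ± 0.05 (SD, n = 4). It lay between 1.75 and 1.92 in S51 bortezomib (0.88 ± 0.06) and between 2.31 and 2.87 in S51A bortezomib (1.32 ± 0.14). The treated S51A cells were thus highest in every library and the untreated lines were alike. An exact two-sided permutation test gave p = 0.0286 for bortezomib in S51 cells (difference 0.17 on the log2 scale), for bortezomib in S51A cells (0.59) and for S51A against S51 under bortezomib (0.44), each p = 0.0381 after Benjamini-Hochberg adjustment over the 4 comparisons. This exact p is the smallest that 4 against 4 libraries allow. The lines under vehicle differed by 0.02 (exact p = 0.714). In RPF the ratio showed the same order of the treated groups, at 0.835 to 0.971 in S51 bortezomib and 1.39 to 1.89 in S51A bortezomib. Untreated RPF libraries lay at 0.831 to 0.910 in S51 and 0.949 to 1.13 in S51A cells, so footprints of Mt2 outnumbered those of Mt1 in all S51 libraries although its total RNA counts were lower.

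**Figure D3:**
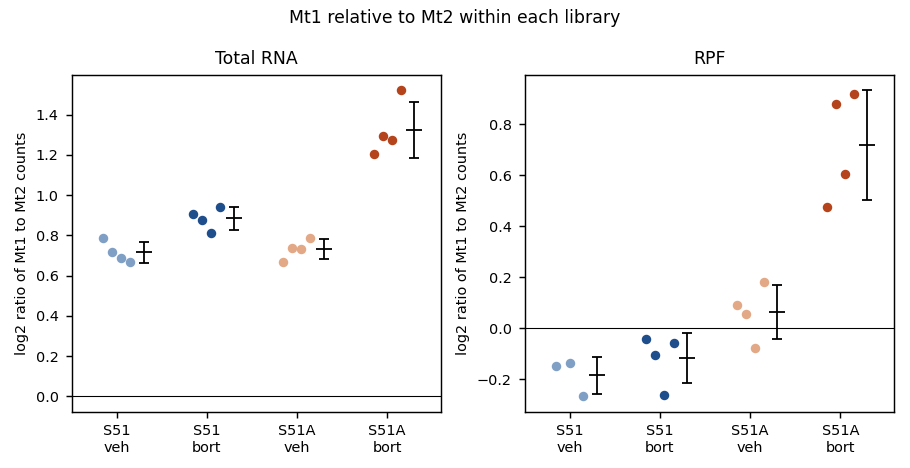
log2 ratio of Mt1 to Mt2 counts within each library (vertical axes), for total RNA on the left and RPF on the right, in the 4 groups. Points are libraries and bars the mean ± SD (n = 4, or 3 for RPF of S51 vehicle), and the line at 0 marks equal counts. The S51A bortezomib libraries are the highest in both panels, at 1.21 to 1.52 in total RNA and 0.47 to 0.92 in RPF.

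Footprints of Slc30a1 and of both metallothioneins were called lower after bortezomib in S51 cells, 3 of 4 members, where 11.2% of all genes were called lower and 7.38% higher. In S51A cells Slc30a1 and Mt2 were called lower, 2 of 4 members, where 6.67% of all genes were called lower and 4.19% higher. Slc30a1 had the largest fall of the members, 3.48-fold in S51 and 2.93-fold in S51A cells, and Mt2 fell 1.82-fold and 1.81-fold. Mt1 fell 1.75-fold in S51 cells and had a log2 fold change of -0.19 in S51A cells that did not pass the test. Mtf1 was called in no RPF comparison.

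The RPF levels of Slc30a1 were 33.7, 29.5 and 26.4 CPM in S51 vehicle and 6.55, 11.5, 8.32 and 8.40 CPM in S51 bortezomib. In S51A cells they were 25.2, 21.96, 31.5 and 23.7 CPM under vehicle and 10.95, 6.82, 5.72 and 9.67 CPM under bortezomib. No treated library reached an untreated one. The treated levels rest on 9 to 22 counts per library in S51 and 11 to 34 in S51A cells, so their precision was limited by depth. The log2 fold change was -1.80 (SE 0.22, adjusted p = 2.58e-06) in S51 and -1.55 (SE 0.20, adjusted p = 5.31e-06) in S51A cells, and the responses differed by -0.25 (SE 0.31, adjusted p = 0.743). The lines overlapped under vehicle (-0.24, SE 0.17, adjusted p = 0.325) and under bortezomib (0.02, SE 0.26, adjusted p = 0.974).

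Mt2 footprints were 791, 1508 and 888 CPM in S51 vehicle and 594, 610.2, 621 and 504 CPM in S51 bortezomib. In S51A cells they were 634, 643, 896 and 515 CPM under vehicle and 397, 366, 413 and 303 CPM under bortezomib. Treated S51A libraries were the lowest throughout, below every treated S51 library. S51 vehicle replicate 2 stood far above its group, and it did so for Mt1 as well. The log2 fold changes were -0.87 (SE 0.18, adjusted p = 0.000926) in S51 and -0.86 (SE 0.17, adjusted p = 0.000792) in S51A cells. Without S51 vehicle replicate 2 the change in S51 cells was -0.53 (adjusted p = 0.000655), still past the test but short of 1.5-fold, and 1 of 4 members remained called there in place of 3. S51A cells gave fewer Mt2 footprints than S51 cells under vehicle, by -0.66 (SE 0.18, adjusted p = 0.00785, where 6.62% of all genes were called lower and 9.19% higher), and under bortezomib, by -0.65 (SE 0.17, adjusted p = 0.00558, where 7.66% were). The vehicle difference was -0.33 without S51 vehicle replicate 2, and the bortezomib difference was -0.57 without S51A bortezomib replicate 4. Both were then uncalled, as was the vehicle difference without S51A vehicle replicate 4 (-0.55).

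Mt1 footprints were 713, 1373 and 738 CPM in S51 vehicle and 576, 568, 519 and 483 CPM in S51 bortezomib. In S51A cells they were 675, 669, 850.3 and 583 CPM under vehicle and 552, 674, 628 and 573 CPM under bortezomib. Only the S51 groups were separated by treatment. The log2 fold change was -0.81 (SE 0.17, adjusted p = 0.000839) in S51, or -0.44 (adjusted p = 0.000434) without S51 vehicle replicate 2, and -0.19 (SE 0.15, adjusted p = 0.415) in S51A cells. The difference between the responses was -0.62 (SE 0.23) with an adjusted p of 0.17, where 1.86% of all genes were called in either direction. It ran from -0.79 without S51 vehicle replicate 3 (adjusted p = 0.0406, called) to -0.25 without S51 vehicle replicate 2. Under vehicle the lines differed by -0.44 (SE 0.16, adjusted p = 0.0499), which was -0.07 without S51 vehicle replicate 2. The adjusted p was 0.0505 by DESeq2, 0.0631 with 10 counts in every RPF library and 0.173 with only the groups compared. It was also above 0.05 without S51A vehicle replicate 1, 2 or 4 (0.0959 to 0.145) or any single bortezomib library (0.0527 to 0.0629). Without S51 vehicle replicate 1 (0.0113) or 3 (0.00601) the difference was called.

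Mtf1 footprints were few, 25 to 112 counts per library. Levels were 15.9, 16.9 and 12.9 CPM in S51 vehicle and 18.2, 24.9, 15.9 and 19.0 CPM in S51 bortezomib. In S51A cells they were 24.3, 18.4, 16.6 and 22.7 CPM under vehicle and 16.1, 15.6, 16.6 and 22.8 CPM under bortezomib. All neighbouring groups overlapped. The log2 fold changes were 0.33 (SE 0.21, adjusted p = 0.251) in S51 and -0.19 (SE 0.18, adjusted p = 0.481) in S51A cells, and 0.45 (SE 0.19, adjusted p = 0.0845) for S51A against S51 vehicle. The rise of Mtf1 mRNA after bortezomib, itself not called, thus had no counterpart in footprints that passed the test. In S51 cells the footprint value lay near the 0.39 of total RNA, but its SE was wide.

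**Figure D4:**
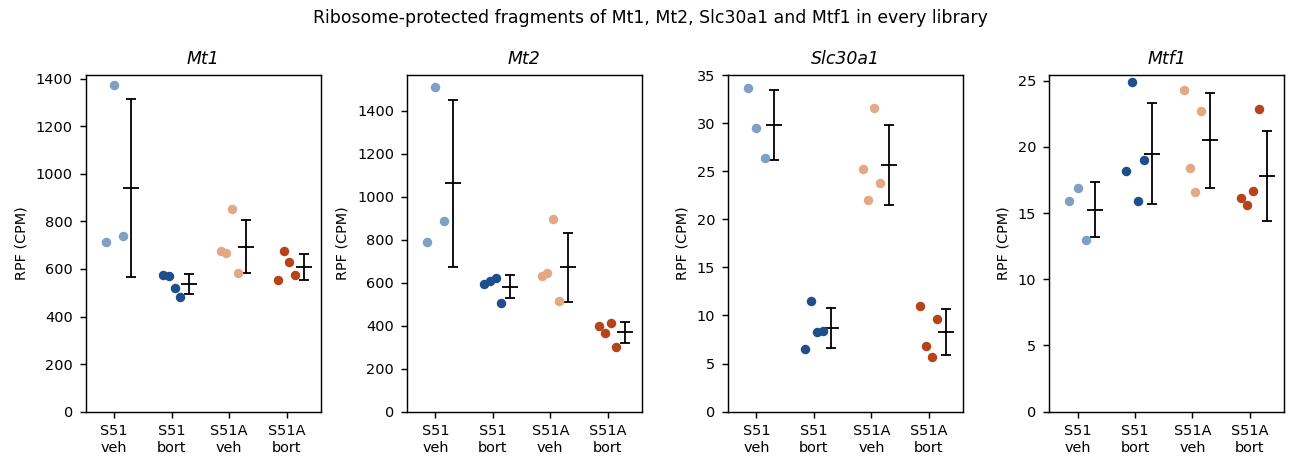
RPF levels of Mt1, Mt2, Slc30a1 and Mtf1 in CPM (vertical axes, from 0) in the 4 groups. Points are libraries and bars the mean ± SD (n = 3 for S51 vehicle, 4 for the other groups). S51 vehicle replicate 2 is the highest point for Mt1 (1373 CPM) and Mt2 (1508 CPM), and Slc30a1 stays at or below 11.5 CPM in all treated libraries.

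Translational efficiency (TE), the RPF change relative to the total RNA change, was tested as an interaction over all 31 libraries, and no member was called in any comparison. At an unadjusted p below 0.05, 4 of the 20 values of the members passed, and by DESeq2, which gave no adjusted p for 2 values of Slc30a1, only Mtf1 in S51A cells passed after adjustment (adjusted p = 0.0412). Among all genes, 5.28% were called in either direction in S51 cells and 0.987% in S51A cells after bortezomib, 0.0849% and 3.08% between the lines under vehicle and bortezomib, and 1.29% for the difference between the responses. For the metallothioneins the TE change with bortezomib was -0.17 (SE 0.19) for Mt1 and -0.06 (SE 0.21) for Mt2 in S51, and -0.02 (SE 0.18) and -0.09 (SE 0.21) in S51A cells, none of which passed the test. Slc30a1 had -0.63 (SE 0.30, adjusted p = 0.208) in S51 and 0.13 (SE 0.27, adjusted p = 1) in S51A cells, and the responses differed by -0.75 (SE 0.41, adjusted p = 0.489). Mtf1 had -0.07 (SE 0.20) in S51 and -0.54 (SE 0.16, adjusted p = 0.118) in S51A cells. Without S51A bortezomib replicate 4, whose Mtf1 level of 22.8 CPM stood apart, the latter was -0.69 (adjusted p = 0.0241) and called.

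**Figure D5:**
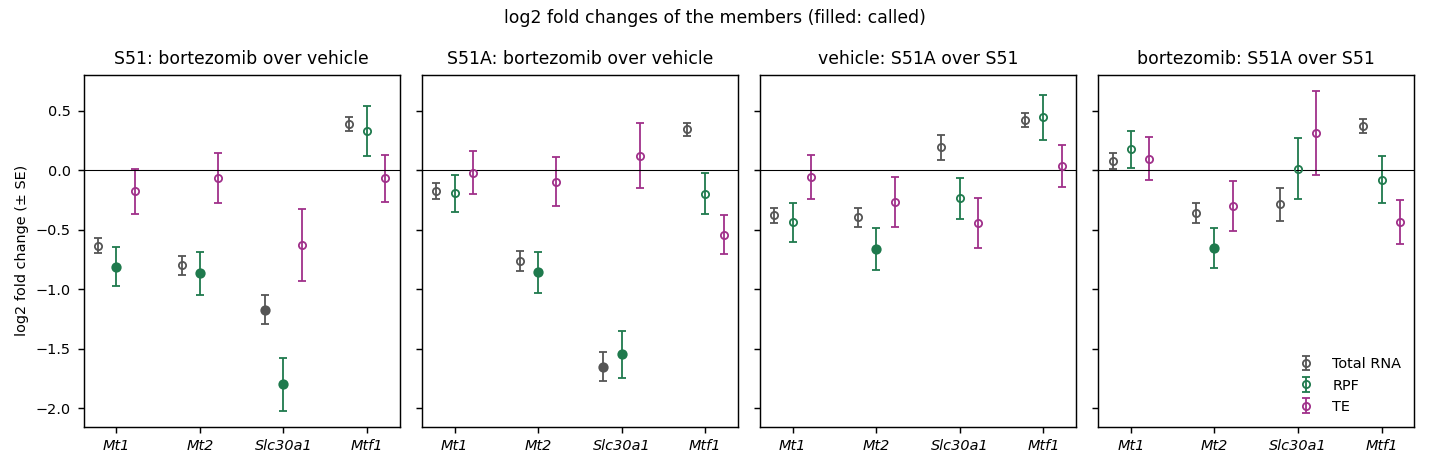
log2 fold changes of Mt1, Mt2, Slc30a1 and Mtf1 (vertical axis) in total RNA, RPF and TE for 4 comparisons. Points give the estimate and bars the SE, and filled points were called (adjusted p below 0.05 with a fold above 2 for total RNA or 1.5 for RPF and TE). Slc30a1 reaches -1.80 in RPF of S51 and -1.65 in total RNA of S51A cells, and no TE point is filled.

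The other metallothionein genes were nearly silent. Mt3, known from brain, had at most 6 counts and Mt4, known from stratified epithelia, at most 12 counts in any total RNA library, and neither passed the filter in RPF or total RNA.

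Other zinc exporters of the Slc30 family, which mostly load zinc into vesicles, the Golgi or endosomes, moved less in total RNA than the 2-fold rule asks. Of 9 genes 5 were tested, 0 were called in the total RNA of either line after bortezomib, and their median log2 fold change was -0.30 in S51 and -0.22 in S51A cells, against -0.01 for all genes in both, with 4 and 3 of the 5 passing the test downward at any fold, as 30.2% and 28.9% of all genes did. Slc30a7 footprints rose in S51 cells by 0.63 (SE 0.15, adjusted p = 0.00301), with a TE change of 0.62 (adjusted p = 0.0137). In TE 3 of the 5 were called higher in S51 cells, where 5.28% of all genes were called in either direction. Besides Slc30a7 they were Slc30a6 (0.72, adjusted p = 0.0103) and Slc30a9 (0.63, adjusted p = 0.0390). Total RNA of Slc30a6 and Slc30a9 changed by -0.38 and -0.48 there, and their footprints were not called. In S51A cells 0 of the 5 were called in TE, where 0.987% of all genes were. The TE responses of the lines differed for Slc30a7, by 0.81 (adjusted p = 0.0462), and had adjusted p = 0.102 for Slc30a6 and 0.385 for Slc30a9. Slc30a9 is named here for its TE, after its values were seen. Between the lines, Slc30a4 was higher in S51A cells under vehicle, at 285 ± 3.8 CPM against 125 ± 6.3 CPM of total RNA (SD, n = 4; log2 fold change 1.19, adjusted p = 7e-17) and by 1.24 (adjusted p = 0.000168) in RPF. Slc30a6 was higher there by 0.60 (adjusted p = 0.0173) in RPF and by 0.24 (adjusted p = 0.00231) in total RNA, the latter not called.

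Zinc importers of the Slc39 family bring zinc into the cytosol. Of 14 genes, 10 were tested in total RNA and 9 in RPF. None was called in total RNA after bortezomib by edgeR at the 2-fold rule, where 3 rose and 3 fell in S51 and 4 rose and 1 fell in S51A cells at any fold, beside the 29.7% and 27.5% of all genes that rose and the 30.2% and 28.9% that fell. Footprints of Slc39a14, an importer known from inflammation and iron uptake, rose in both lines, by 0.69 (SE 0.19, adjusted p = 0.0105) in S51 and 0.63 (SE 0.18, adjusted p = 0.0156) in S51A cells. Total RNA of Slc39a14 rose by 0.55 (adjusted p = 7.70e-08) and 0.59 (adjusted p = 6.61e-08), not past 2-fold. Footprints of Slc39a1, an importer of the plasma membrane, fell by 0.81 in S51 cells (SE 0.17, adjusted p = 0.00114) and had -0.08 (adjusted p = 0.72) in S51A cells. The difference between these responses, S51 minus S51A, was -0.73 (adjusted p = 0.0778). Under bortezomib the Slc39a1 footprints were 27.2 ± 5.3 CPM in S51 and 68.5 ± 8.3 CPM in S51A cells (SD, n = 4). Under vehicle Slc39a6 was higher in S51A cells, at 254 ± 6.2 CPM against 126 ± 5.7 CPM of total RNA (log2 fold change 1.01, adjusted p = 5.41e-17) and by 1.16 (adjusted p = 4.14e-08) in RPF. Slc39a1 was higher by 0.59 (adjusted p = 0.00452) in RPF, and Slc39a11 had -0.64 (adjusted p = 0.018) in RPF and was called lower.

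Of 5 other genes linked to MTF1, 4 were tested. In total RNA after bortezomib 1 rose and 0 fell at any fold in S51 cells, where 29.7% of all genes rose and 30.2% fell. In S51A cells 1 rose and 1 fell, where 27.5% of all genes rose and 28.9% fell. The median log2 fold changes of the list in total RNA were 0.02 in S51 and 0.04 in S51A cells, against -0.01 for all genes in both. Gclc, the catalytic subunit of glutathione synthesis, rose with bortezomib while the metallothioneins fell. Its total RNA went from 463 ± 19 to 835 ± 56 CPM in S51 (0.85, SE 0.05, adjusted p = 4.33e-13, not past 2-fold) and from 351 ± 21 to 784 ± 52 CPM in S51A cells (1.16, SE 0.05, adjusted p = 2.11e-15, called). Its footprints rose by 1.07 (adjusted p = 7.34e-07) and 1.29 (adjusted p = 2.24e-08). Ndrg1, a stress and hypoxia responsive gene, was higher in untreated S51A than S51 cells in RPF by 0.67 (adjusted p = 0.0228) and was lowered by bortezomib in S51A cells, at -0.68 (adjusted p = 0.0178).

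Copper handling genes were covered because metallothioneins also hold copper, and of 8 genes 7 were tested. None was called in total RNA after bortezomib, with medians of 0.25 in S51 and 0.22 in S51A cells, against -0.01 for all genes in both, and 4 and 6 of the 7 rose and 0 fell at any fold, where 29.7% and 27.5% of all genes rose. Slc31a2, a copper transporter of endosomes, was higher in S51A vehicle than S51 vehicle by 1.05 (SE 0.10, adjusted p = 2.93e-09) in total RNA and by 1.69 (SE 0.37, adjusted p = 0.00168) in RPF. Its footprints rose with bortezomib in S51 cells by 1.42 (SE 0.42, adjusted p = 0.0143) from only 3 to 12 counts per untreated library. Its total RNA rose there by 0.93 (SE 0.10, adjusted p = 3.33e-08), not past 2-fold. Of 5 factors other than MTF1 that act on the Mt promoters, all tested, 0 were called in total RNA after bortezomib. Among all genes 3.02% were called lower and 1.96% higher in S51, and 2.55% lower and 1.63% higher in S51A cells. At any fold 2 of the factors rose and 1 fell in each line, where 29.7% and 27.5% of all genes rose and 30.2% and 28.9% fell. Footprints of Nfe2l2, the regulator of the oxidative stress response, rose in S51 cells by 0.83 (SE 0.11, adjusted p = 7.23e-06) with a TE change of 0.60 (adjusted p = 0.000189). They had 0.28 (adjusted p = 0.0534) in S51A cells, and the difference between these responses had an adjusted p of 0.0566. Under bortezomib the Nfe2l2 footprints were 226 ± 6.2 CPM in S51 and 144 ± 9.9 CPM in S51A cells (SD, n = 4).

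The genes most like each member over the 16 total RNA libraries were found by Pearson's r of log2 CPM, as a description in which the libraries share groups and treatment. Mt1 was followed most closely by Rab31 (0.943), Csnk1g2 (0.930), Bckdk (0.920), Polr2i (0.920) and Ly6e (0.918), and Mt2 stood at rank 31 with 0.878. Mt2 was followed by F2rl1 (0.973), Htra2 (0.970), Slc20a2 (0.966), Reep4 (0.962) and Eif6 (0.956), with Mt1 at rank 393. For Slc30a1 they were Bnc1 (0.977), Sik1 (0.974), Cdc42ep1 (0.973), Klf10 (0.973) and Myc (0.972), with Mt2 at rank 394 (0.871) and Mt1 at rank 1492 (0.701). For Mtf1 they were Cd81 (0.966), Trip10 (0.964), Tmem50b (0.963), Pgpep1 (0.963) and Zbtb43 (0.963), and its r was -0.865 with Mt2, -0.717 with Mt1 and -0.651 with Slc30a1. Neither metallothionein was thus among the 5 genes most like the other.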

How the data were processed

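Ribosome profiling and total RNA libraries of S51 and S51A cells were analysed from the raw read counts per gene that the authors deposited. They trimmed reads by FastX, placed them on mm10 by bowtie2 and used plastid for counting. For RPF, lengths of 20 to 23 or 26 to 32 nucleotides were kept, over the coding sequence without its first 15 and last 5 codons. The labels' processing notes also name featureCounts, and the region counted for total RNA is not given in the sources used here. Column names add that rRNA was removed, duplicates marked, repeats masked and uniquely mapped reads kept. For Mt1 and Mt2 this leaves 126 positions in RPF. Counts of up to 3166 and 3567 exceeded the 1386 combinations of position and length there, so reads were not all reduced to 1 per position and length.

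Counts were fitted in R 4.3.3 with edgeR 4.0.16 (TMM, filterByExpr with 10 counts and a total of 15, glmQLFit and glmQLFTest over all groups of a kind of library), and TE as an interaction over 31 libraries. SE is the log2 fold change divided by the root of F. CPM are scaled by TMM. DESeq2 1.42.0, other scalings, filters, blocks and single libraries left out were alternatives. The fit was tested on simulated counts. No replicate pair was a repeated library (chi-square per gene at least 1.66 in RPF and 2.78 in total RNA). Replicate numbers were not used as pairs. RPF libraries were depleted of rRNA in pools by the authors, and which libraries shared a pool is not given in the sources used here. Genes named beside the members are those of 6 lists that were called in total RNA or RPF for either line's response or between the lines under vehicle, and the 5 genes most like each member. The members and lists were chosen with earlier results of these data known. Sequences and coordinates are from RefSeq on mm10 (GRCm38).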

Additional observations from a re-analysis of the deposited data

Results flagged for a closer look

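The total RNA response of Mt1 to bortezomib differed between the lines, S51 minus S51A, by -0.46 on the log2 scale (edgeR's quasi-likelihood interaction test, adjusted p = 0.00101), with values from -0.53 to -0.39 over single libraries left out.

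One of 28 groups of 4 libraries held a library far from the others, and chance flags about 1 in 20 such groups. It was Mtf1 RPF in S51A bortezomib, where replicate 4 had 22.8 CPM and the others 15.6 to 16.6 CPM.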

How the results depend on the processing

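Of the values for single members, 402 were unchanged under the other settings (13 reversed, 1 gained and 2 lost the call) and 1186 with 1 library left out (45 reversed, 4 gained and 5 lost the call). Unchanged means that direction and call were kept. For TE taken as the ratio of mean normalized counts, which has no call, it means a value within the SD between libraries of the main value. The total RNA counts of called members were the same under every alternative run. The cause of the changes below was not tested unless stated.

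With library sizes alone, which shifted the median total RNA change of all genes to -0.16 in S51 and -0.13 in S51A cells, the sign turned for Slc30a1 RPF (-0.031) and Mt1 TE (-0.0021) between the lines under bortezomib, the Mt2 RPF response difference (0.019), TE in S51 cells of Mt2 (0.090) and Mtf1 (0.088), and Mt1 TE in S51A cells (0.070). With only the groups compared, Mt1 TE in S51A cells was 0.0045 and 0 members were called in RPF between the lines under vehicle, in place of 1. With lysate as a block, vehicle TE was 0.026 for Mt1 and -0.034 for Mtf1. With no filter, 1 member (Mt1, adjusted p = 0.0311) was called for the RPF response difference, in place of 0. With 10 counts in every RPF library, 1 member was called in S51A RPF in place of 2, because Slc30a1 was filtered out.

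Nothing in the labels ties libraries of the same replicate number, so the block was not used in the main fit. In total RNA every same-number pair deviated with a positive r (range 0.027 to 0.370, over 0.1 in 21 of 24 pairs). The median there was 0.160, against -0.050 for pairs of other numbers. In RPF r ranged from -0.283 to 0.381 (over 0.1 in 5 of 21 pairs), with medians of 0.067 and -0.036. In total RNA 15 of 16 libraries correlated best with their own number, which is a hint from the data that these libraries share something by number, and in RPF 10 of 15 did. Under the replicate block, 0 members were called in RPF between the lines under vehicle, the Mt2 RPF response difference was 0.093, Mt2 TE in S51 cells 0.027, vehicle TE 0.0090 for Mt1 and -0.012 for Mtf1, and the Slc30a1 total RNA response difference had an adjusted p of 0.00676 (0.00655 with no filter). The Slc30a1 total RNA differences between the lines then passed (0.0355 under vehicle, 0.0171 under bortezomib), and the Mt1 RPF difference under vehicle did not (0.0851).

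Leaving out 1 library gave 1 to 3 called members in RPF of S51, 0 to 2 and 0 to 1 between the lines under vehicle and bortezomib, 0 to 1 for the RPF response difference and 0 to 1 in TE of S51A. The log2 Mt1 to Mt2 ratio moved by 0.15 to 0.19 in S51 and 0.53 to 0.63 in S51A cells, and the lines differed by -0.0033 to 0.040 under vehicle and 0.37 to 0.48 under bortezomib. With 3 against 4 libraries the exact permutation test gave an adjusted p of 0.0762 for all but the vehicle comparison, each at the smallest p that design allows. Values whose sign turned with 1 library left out ran for Mt1 TE from -0.35 to 0.19 (S51), -0.095 to 0.093 (S51A), -0.25 to 0.30 (vehicle) and -0.33 to 0.20 (response difference), for Mt2 TE from -0.23 to 0.27, -0.21 to 0.073, -0.44 to 0.057 and -0.14 to 0.36 in that order, and for Mt2 response differences from -0.18 to 0.33 in RPF and -0.12 to 0.049 in total RNA. For Mtf1 they ran from -0.23 to 0.027 (RPF, bortezomib), -0.23 to 0.053 (TE, S51), -0.14 to 0.11 (TE, vehicle) and -0.0078 to 0.084 (total RNA response difference), and for Slc30a1 from -0.16 to 0.14 (RPF, bortezomib) and -0.061 to 0.25 (TE, S51A). Depth limits the RPF of Slc30a1 and Mtf1, with 9 to 117 counts per library.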
